A study of Mus musculus with 10 samples.

Results

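The genes described here are the Runx transcription factors and the proteins that work with them: Runx1, Runx2, Runx3, their partner subunit Cbfb, and the related corepressors Runx1t1, Cbfa2t2 and Cbfa2t3. They were taken as a named list of 7 Ensembl genes out of 55414 in each count table, and all 7 were among the 18005 genes with enough counts to be tested. RNA was sequenced from trigeminal ganglia, the sensory ganglia of the face, that were microdissected from C57Bl6 mouse embryos at E13.5, in mid-gestation. There were 5 Prdm12-/- libraries, numbered 16, 29, 42, 49 and 50, and 5 Prdm12+/+ libraries, numbered 22, 24, 32, 35 and 45. Every library of both genotypes was labelled Sox10 Venus+, and the labels name no cell sorting. Prdm12 encodes a PR-domain regulator of transcription that developing pain-sensing neurons need, and the mutant allele is not described in the labels. The sample titles of the knockouts begin with F and those of the wild types with K, so whatever that letter stands for cannot be told apart from the genotype. The labels do not state that each library came from its own embryo, so the p-values below measure the spread between these libraries.

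Runx proteins bind DNA through a shared Runt domain, and each binds more tightly as a heterodimer with core binding factor beta, the product of Cbfb. In mouse sensory ganglia Runx1 is known for directing the development of pain, itch and temperature neurons, and Runx3 is known for directing TrkC-bearing proprioceptive neurons. Runx2 is known as the master regulator of bone formation. Runx1t1, Cbfa2t2 and Cbfa2t3 make up the ETO family of corepressors, which do not bind DNA themselves and recruit histone deacetylases; RUNX1T1 is best known in human leukaemia, where it is fused to RUNX1.

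Runx1 and Runx3 each have a distal and a proximal promoter. Their sequences are shown because these are the 2 members whose levels separated the genotypes in opposite directions, and because Runx factors are known to act on Runx genes. Each run below gives the 250 bases upstream of a RefSeq start on GRCm38.p6, and capitals mark the Runx core motif TGTGGT or its reverse complement ACCACA.
Runx1 distal (chr16:92826075-92826324, minus strand): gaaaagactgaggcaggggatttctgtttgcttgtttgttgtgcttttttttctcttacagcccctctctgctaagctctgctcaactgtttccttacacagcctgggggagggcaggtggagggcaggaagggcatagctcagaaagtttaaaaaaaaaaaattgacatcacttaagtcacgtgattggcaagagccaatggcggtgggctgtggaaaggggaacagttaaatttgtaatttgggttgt
Runx1 proximal (chr16:92697330-92697579, minus strand): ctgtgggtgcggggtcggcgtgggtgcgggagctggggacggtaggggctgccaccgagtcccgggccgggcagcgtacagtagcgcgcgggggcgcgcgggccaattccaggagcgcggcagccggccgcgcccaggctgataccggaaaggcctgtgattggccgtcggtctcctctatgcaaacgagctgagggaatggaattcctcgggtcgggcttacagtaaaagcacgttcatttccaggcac
Runx3 distal (chr4:135120395-135120644, plus strand): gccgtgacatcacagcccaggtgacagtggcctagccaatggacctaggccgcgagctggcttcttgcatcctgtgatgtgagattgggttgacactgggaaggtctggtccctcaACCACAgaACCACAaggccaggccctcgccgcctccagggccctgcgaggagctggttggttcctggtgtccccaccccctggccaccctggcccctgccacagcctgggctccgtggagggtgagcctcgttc
Runx3 proximal (chr4:135152295-135152544, plus strand): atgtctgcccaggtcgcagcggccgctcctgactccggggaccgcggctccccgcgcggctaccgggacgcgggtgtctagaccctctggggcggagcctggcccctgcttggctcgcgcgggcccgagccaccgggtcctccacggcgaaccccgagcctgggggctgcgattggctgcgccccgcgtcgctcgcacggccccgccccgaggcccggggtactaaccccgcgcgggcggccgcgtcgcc
The distal Runx3 promoter held the motif at 2 places, beginning 134 and 126 bases upstream of the start, and neither Runx1 promoter held it in this window. RefSeq promoters were at hand for 6 of the 7 members, all but Runx1t1, and 2 of their 9 promoters held the motif, the other one being that of Runx2. Over all 32851 mouse promoters of the same length, 4614 (14.0%) held it. A match describes the letters and is neither a binding site nor a cause of any level given below.

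The level of Prdm12 RNA was read first, as a check of the genotype labels; which part of the gene is altered is unknown, so some counts may remain. Prdm12 stood at 8.74, 42.7, 10.1, 12.2 and 17.0 CPM (counts scaled to library size, with edgeR's TMM factors) in knockout libraries 16, 29, 42, 49 and 50, against 148, 178, 246, 264 and 74.3 CPM in wild-type libraries 22, 24, 32, 35 and 45; all values below follow this order of libraries. The groups did not overlap, and the knockout over wild-type log2 fold change was -3.32 ± 0.49 (SE), with an adjusted p of 0.0156 (edgeR's quasi-likelihood test with Benjamini-Hochberg adjustment over all genes). That call was lost without knockout 49 (adjusted p = 0.0561), without knockout 50 (0.0616) and without wild-type libraries 32 and 35 together (0.110). The knockout libraries held 3258008 (library 49) to 33556002 counts, and the wild-type libraries 27612355 to 32045821. Of the variance between libraries, 32.2% lay on a first principal component that set wild types 32 and 35 against the rest, and 19.3% on a second that set knockout 29 against the rest. The summed level of 13 sensory neuron markers ranged from 6709 to 16354 CPM in the knockouts and from 8890 to 16514 CPM in the wild types. Every library therefore carried neuronal markers. Several of the 13, such as Tubb3 and Nefm, are also expressed by other neurons, so the sum is not particular to sensory neurons. Over all genes 84 were called, 17 higher and 67 lower in the knockout, which is 0.467% of those tested.

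Of the 7 members, Runx1 alone passed the threshold in edgeR. It was 5.54-fold lower in the knockout ganglia. Runx3 was higher in each knockout library than in any wild-type library but missed the threshold, and Cbfb was lower on average with 1 knockout library reaching into the wild-type range. The 3 ETO-family genes and Runx2 overlapped between genotypes. Lower calls were 1 of 7 members, beside 0.372% of all genes tested, and higher calls were 0 of 7, beside 0.0944%; at an unadjusted p under 0.05 there were 2 lower and 1 higher, beside 13.1% of all genes tested in either direction. DESeq2 called 1 higher and 1 lower, beside 350 higher and 245 lower of the 20625 genes it gave an adjusted p. Limma-voom with sample quality weights called 1 higher and 2 lower, beside 1264 higher and 1080 lower of 18005 genes. The DESeq2 and limma-voom calls of each gene list below stand beside these same totals. The median log2 fold change over the 7 was -0.12, and over all genes tested it was -0.03.

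**Figure D1:**
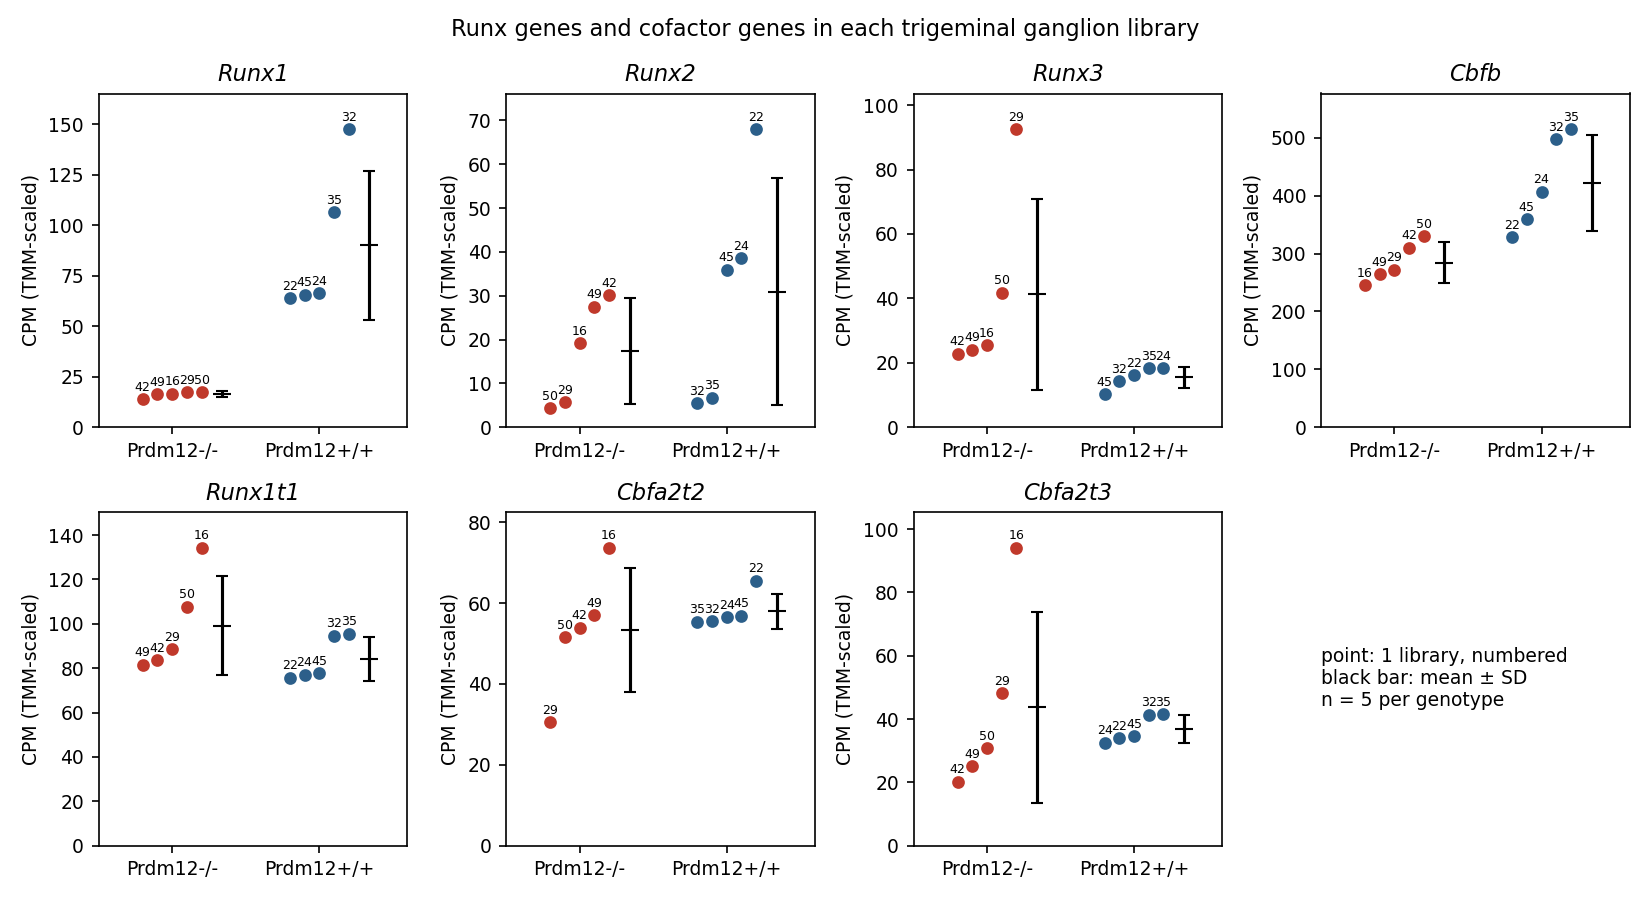
Scaled CPM (y axis, from 0) of each member in 5 Prdm12-/- and 5 Prdm12+/+ libraries; each point is 1 library with its number, and black bars give the mean ± SD. Runx1 sits between 13.9 and 17.4 CPM in the knockouts and between 64.0 and 148 CPM in the wild types, Runx3 shows the opposite separation, and the other members overlap.

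Runx1 (ENSMUSG00000022952) stood at 16.6, 17.3, 13.9, 16.2 and 17.4 CPM in the knockouts, against 64.0, 66.5, 148, 107 and 65.6 CPM in the wild types. The knockout libraries lay within a narrow band, while wild-type libraries 32 and 35 lay far above the other 3 wild types, and the groups did not overlap. The means were 16.3 ± 1.43 CPM in the knockouts and 90.1 ± 36.8 CPM in the wild types (SD, n = 5 each). The log2 fold change was -2.47 ± 0.25 (SE; adjusted p = 0.00127, edgeR). Runx1 passed the threshold under all 19 alternatives run, with log2 fold changes of -2.57 to -1.96 and adjusted p up to 0.0277. Knockout 49, the shallowest library, gave only 56 Runx1 counts, yet its value sat inside the range of the other knockouts. Over all libraries Runx1 had 1722 counts in the knockouts and 13245 in the wild types, and Gm26626 on its opposite strand had 6 in the knockouts and 53 in the wild types. In bulk tissue, fewer cells that express a gene and less of its RNA per cell cannot be told apart.

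Runx3 (ENSMUSG00000070691) stood at 25.4, 92.5, 22.9, 24.03 and 41.7 CPM in the knockouts, against 16.1, 18.4, 14.2, 18.3 and 10.4 CPM in the wild types. Knockout 29 was far above the rest, and even the lowest knockout was above the highest wild type. Of the 7 members, Runx1 and Runx3 were the 2 whose groups did not overlap; of all genes tested 4.21% did not overlap, 1.29% with the knockouts above, as for Runx3, and 2.92% with the knockouts below, as for Runx1. The means were 41.3 ± 29.6 CPM in the knockouts and 15.5 ± 3.35 CPM in the wild types (SD, n = 5 each). The log2 fold change was 1.42 ± 0.38 (SE; adjusted p = 0.155, edgeR), so the gene was not called. DESeq2 gave 1.47 with an adjusted p of 0.0115, and limma-voom with sample quality weights gave 1.10 with an adjusted p of 0.0260. Without knockout 29 the edgeR log2 fold change was 0.92 (adjusted p = 0.138). Glial markers summed to 5210 CPM in knockout 29, against 1425 to 1988 CPM in the other knockouts and 1375 to 2568 CPM in the wild types; their part in its Runx3 value was not tested.

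The balance between the 2 genes was read within each library, where no scaling between libraries enters. Per kilobase of exon, Runx3 exceeded Runx1 in all 5 knockout libraries and Runx1 exceeded Runx3 in all 5 wild-type libraries. The log2 ratio of Runx1 to Runx3 was -1.88, -3.68, -1.99, -1.83 and -2.53 in the knockouts, against 0.72, 0.59, 2.11, 1.28 and 1.40 in the wild types. Its mean was -2.38 ± 0.78 in the knockouts and 1.22 ± 0.61 in the wild types (SD, n = 5 each). The difference of -3.60 ± 0.44 (SE) on the log2 scale is a 12.1-fold shift towards Runx3 in the knockouts (exact two-sided permutation p = 0.00794, the smallest that 5 libraries against 5 can give). It ranged from -3.76 to -3.28 with each library left out in turn. Without wild-type libraries 32 and 35 it was -3.29, and without knockouts 29 and 49 it was -3.35, both at the smallest p those numbers allow (exact permutation, 0.0357). Because the ratios did not overlap between genotypes, leaving libraries out could give no other p.

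**Figure D2:**
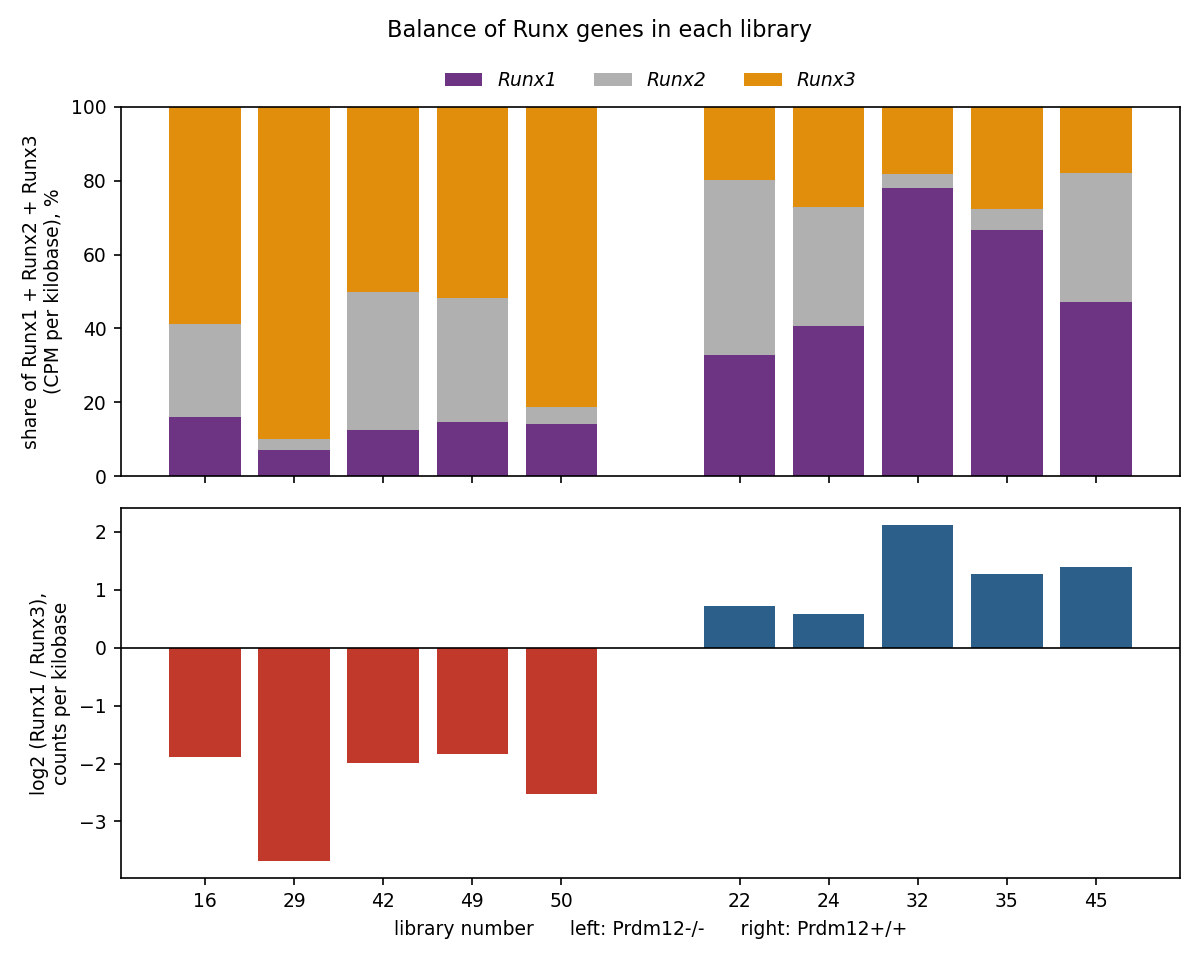
Top: share of each Runx gene in the summed CPM per kilobase of Runx1, Runx2 and Runx3, in percent, in each library (knockouts left, wild types right). Bottom: log2 of the Runx1 to Runx3 ratio, counts per kilobase, which is below 0 in every knockout and above 0 in every wild-type library.

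As a share of the 3 Runx genes per kilobase, Runx1 made up 15.95, 6.996, 12.6, 14.6 and 14.1% in the knockouts, against 32.8, 40.7, 78.1, 66.7 and 47.1% in the wild types. Runx3 made up 58.8, 89.9, 50.05, 51.8 and 81.1% in the knockouts, against 19.9, 27.1, 18.0, 27.5 and 17.8% in the wild types. Neither share overlapped between genotypes, whereas the Runx2 share did. The summed level of Runx1 and Runx3 per kilobase was 9.61 ± 5.99 CPM in the knockouts and 10.6 ± 3.15 CPM in the wild types (SD, n = 5 each), and these ranges overlapped.

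Each gene was also set against the summed sensory neuron markers of the same library. Other neurons share several of these markers, so the scale is not a level per sensory neuron. This scaling was chosen after the data were seen, and 2 of its 13 markers, Pou4f1 and Isl1, are also known regulators of Runx1. None of the 13 was called by edgeR, and 10 had a negative fold change. Runx1 stood at 1.67, 1.06, 1.86, 2.42 and 1.70 CPM per 1000 marker CPM in the knockouts, against 7.20, 5.82, 9.32, 6.45 and 6.94 in the wild types. Runx3 stood at 2.57, 5.66, 3.07, 3.58 and 4.09 per 1000 in the knockouts, against 1.82, 1.61, 0.897, 1.11 and 1.09 in the wild types. On this scale neither gene overlapped between genotypes: Runx1 was 4.19-fold lower (log2 -2.07 ± 0.22, SE) and Runx3 2.90-fold higher (log2 1.54 ± 0.27, SE) in the knockouts. Both had an exact permutation p of 0.00794, again the smallest possible, and 0.00794 after adjustment over the 3 tests of this kind. Cbfb per 1000 marker CPM ranged from 16.6 to 41.6 in the knockouts and from 31.2 to 38.0 in the wild types, with the wild-type range inside that of the knockouts.

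**Figure D3:**
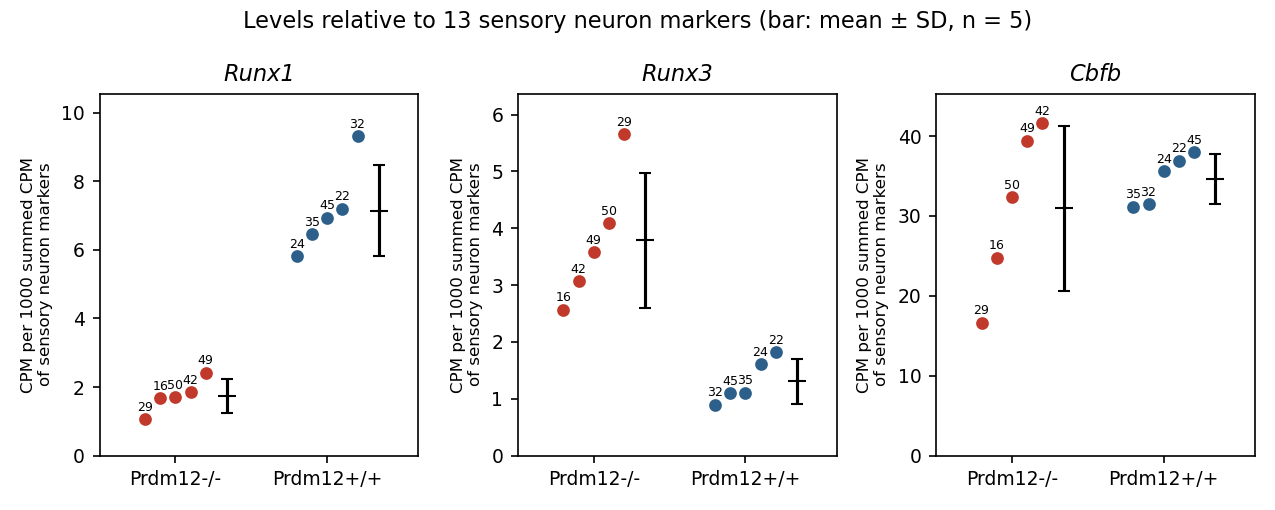
Runx1, Runx3 and Cbfb as CPM per 1000 summed CPM of 13 sensory neuron markers (y axis, from 0), 1 numbered point per library, bars the mean ± SD. The genotypes do not overlap for Runx1 (1.06 to 2.42 in knockouts, 5.82 to 9.32 in wild types) or Runx3 (2.57 to 5.66 in knockouts, 0.897 to 1.82 in wild types), and they do for Cbfb.

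Runx2 (ENSMUSG00000039153) stood at 19.2, 5.66, 30.1, 27.5 and 4.37 CPM in the knockouts, against 68.0, 38.5, 5.40, 6.73 and 36.0 CPM in the wild types. Both genotypes held libraries with little Runx2 and libraries with several times more, and they overlapped widely. The log2 fold change was -0.85 ± 0.72 (SE; adjusted p = 0.617, edgeR). The summed level of 6 cartilage markers, such as Col2a1, was 584, 711, 1363, 1114 and 361 CPM in the knockouts, against 1165, 1072, 236, 260 and 1046 CPM in the wild types. The wild-type libraries low in Runx2, 32 and 35, were the ones low in cartilage markers, and among the knockouts library 50 was lowest in both. Knockout 29 had less Runx2 than knockout 16 and a higher marker sum. That higher sum came from Col2a1, at 569 CPM in knockout 29 and 359 CPM in knockout 16. Sox9, Acan, Col11a1, Matn1 and Col9a1 were lower in knockout 29, at 30.1, 0.393, 78.5, 0.236 and 32.5 CPM. In knockout 16 they stood at 44.9, 10.4, 124, 2.90 and 43.0 CPM. The part of skeletal tissue in the Runx2 values was not tested. On the opposite strand Supt3 overlaps Runx2, with 1636 counts in the knockouts and 2244 in the wild types, and the strand setting of the counting is unknown. The antisense genes Runx2os1, Runx2os2 and Runx2os3 had 11, 2 and 0 counts in the knockouts, against 28, 11 and 2 in the wild types.

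Cbfb (ENSMUSG00000031885), whose product stabilises every Runx protein on DNA, stood at 245, 272, 310, 264 and 330 CPM in the knockouts, against 328, 407, 498, 515 and 359 CPM in the wild types. Wild-type libraries 32 and 35 were again the highest, and the groups overlapped by knockout 50 and wild-type 22. The log2 fold change was -0.57 ± 0.16 (SE; adjusted p = 0.179, edgeR), and limma-voom alone called it, at -0.57 with an adjusted p of 0.0305. Per kilobase, Cbfb had 7.83 ± 2.35 times the summed level of the 3 Runx genes in the knockouts and 8.71 ± 1.91 times in the wild types (SD, n = 5 each), and the ranges overlapped.

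Of the ETO family, Runx1t1 (ENSMUSG00000006586) stood at 134, 88.5, 83.7, 81.7 and 108 CPM in the knockouts, against 75.8, 77.0, 94.6, 95.6 and 77.6 CPM in the wild types. Cbfa2t2 (ENSMUSG00000038533, also called Mtgr1) stood at 73.7, 30.6, 54.0, 57.0 and 51.6 CPM in the knockouts, against 65.6, 56.5, 55.5, 55.4 and 56.9 CPM in the wild types. Cbfa2t3 (ENSMUSG00000006362, also called Mtg16) stood at 94.1, 48.2, 20.2, 25.2 and 30.9 CPM in the knockouts, against 33.9, 32.5, 41.4, 41.6 and 34.5 CPM in the wild types. Knockout 16 was the highest library for all 3 genes, and every one overlapped between genotypes. The edgeR log2 fold changes were 0.24 ± 0.16 for Runx1t1, -0.12 ± 0.19 for Cbfa2t2 and 0.26 ± 0.36 for Cbfa2t3 (SE), with adjusted p of 0.521, 0.813 and 0.775. The sign of Cbfa2t3 turned without knockout 16 (-0.24) and in limma-voom (-0.27), and that of Cbfa2t2 turned without knockout 29 (0.063) and without knockouts 29 and 49 together (0.045). The summed level of 11 central and motor neuron markers was 249, 137, 31.6, 48.1 and 65.1 CPM in the knockouts, against 7.34, 64.9, 7.14, 1.78 and 37.4 CPM in the wild types. Knockouts 16 and 29 were the highest for both these markers and Cbfa2t3; the part of other neurons in the Cbfa2t3 values was not tested.

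**Figure D4:**
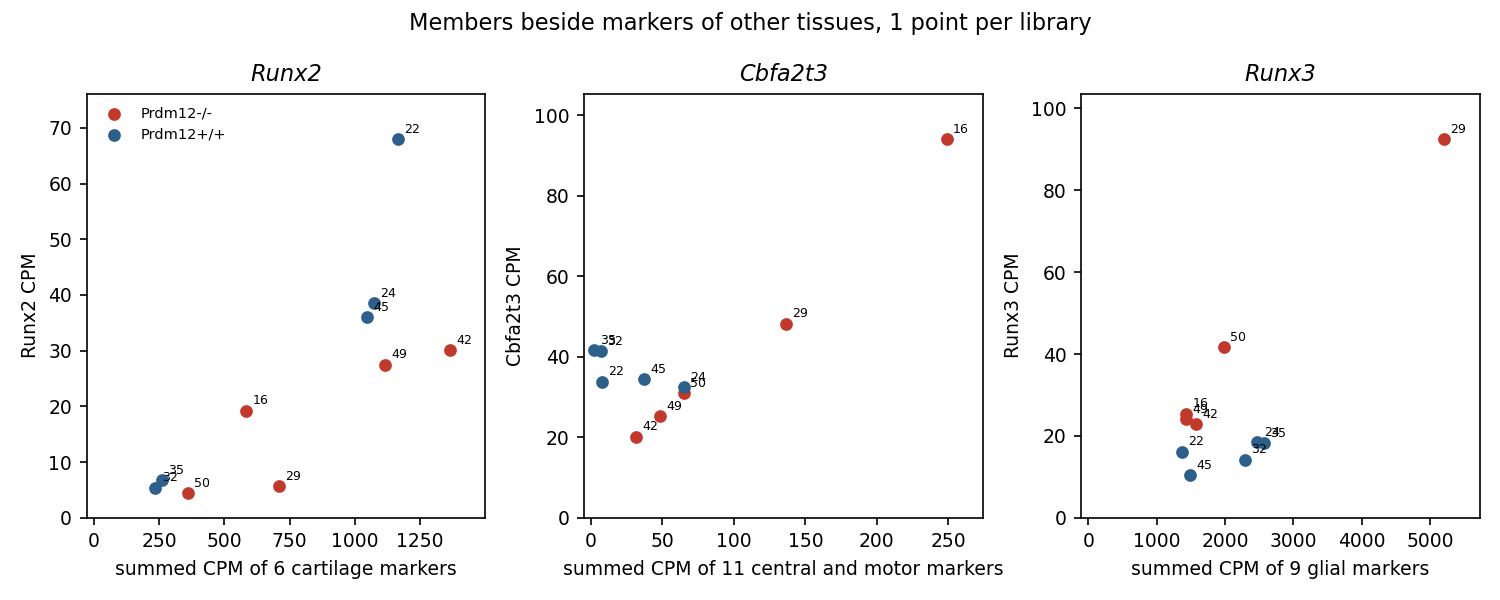
A member's CPM (y axis) against the summed CPM of markers of another tissue (x axis), 1 numbered point per library: Runx2 against cartilage, Cbfa2t3 against central and motor neurons, Runx3 against glia. The 3 libraries lowest in cartilage markers (50, 32 and 35) have little Runx2, as does knockout 29 at 711 CPM of them, knockout 16 is highest for Cbfa2t3 and its markers, and knockout 29 for Runx3 and glial markers.

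Levels of different genes were compared per kilobase of exon. In the knockouts the order of mean levels was Cbfb 81.7, Runx1t1 12.5, Runx3 8.26, Cbfa2t2 6.17, Cbfa2t3 5.22, Runx2 1.97 and Runx1 1.35 CPM per kilobase. In the wild types it was Cbfb 121, Runx1t1 10.6, Runx1 7.49, Cbfa2t2 6.70, Cbfa2t3 4.39, Runx2 3.50 and Runx3 3.09 CPM per kilobase. Cbfb stood clear of every other member in both genotypes, and Cbfa2t2 stood clear of Cbfa2t3 in the wild types; every other pair of neighbours in these orders overlapped between libraries. Runx1 was last in the knockouts and Runx3 last in the wild types.

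Of 7 genes known to act upstream of Runx genes in sensory neurons, edgeR called 0 and DESeq2 called 0. At an unadjusted p under 0.05 (edgeR), passed by 13.1% of all genes tested in either direction, 3 were lower. Limma-voom called 4 lower, beside 1080 of all 18005 genes tested. The median log2 fold change was -0.39. Isl1, a homeodomain factor of sensory neurons, averaged 364 ± 100.03 CPM in the knockouts and 630 ± 233 CPM in the wild types (SD, n = 5 each), with an adjusted p of 0.250 (edgeR). Klf7, a zinc finger factor of sensory neurons, averaged 189 ± 25.8 CPM in the knockouts and 257 ± 69.3 CPM in the wild types, with an adjusted p of 0.344 (edgeR). Pou4f1, a POU-domain factor needed for Runx1 expression, averaged 109 ± 66.8 CPM in the knockouts and 194 ± 54.3 CPM in the wild types, with an adjusted p of 0.339 (edgeR). All 3 overlapped between genotypes.

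Of 18 genes that are known to need Runx1 in mouse dorsal root ganglia, 12 had enough counts to be tested. By edgeR 4 were called, all lower in the knockouts, beside 0.372% of all genes tested that were called lower. At an unadjusted p under 0.05, passed by 13.1% of all genes tested in either direction, 1 was higher and 5 were lower. DESeq2 called 1 higher and 4 lower, and limma-voom called 2 higher and 5 lower. Of the 12, 4 had a positive fold change, and the median log2 fold change was -0.27. Scn10a, a sodium channel of pain neurons, stood at 6.82, 26.1, 4.69, 9.27 and 10.1 CPM in the knockouts, against 237, 113, 486, 454 and 244 CPM in the wild types. Trpv1, the capsaicin receptor, stood at 0.889, 1.34, 1.10, 1.74 and 1.64 CPM in the knockouts, against 10.04, 10.4, 64.4, 38.5 and 29.1 CPM in the wild types. Neither overlapped, and the log2 fold changes were -4.76 ± 0.56 for Scn10a (adjusted p = 0.00336) and -4.56 ± 0.56 for Trpv1 (adjusted p = 0.00410; SE, edgeR). Trpv1 lost its call without knockouts 29 and 49 together (0.0573). Th, which makes the dopamine precursor and marks a class of touch fibres, and Ret, the receptor for glial cell line-derived factors, were lower at log2 fold changes of -2.03 ± 0.31 (adjusted p = 0.0164) and -1.87 ± 0.33 (adjusted p = 0.0337). These 2 calls were less stable: Th passed under 13 of 19 alternatives and Ret under 9, with adjusted p up to 0.116 and 0.207. Libraries whose removal cost Th its call were knockouts 42 and 49 and wild types 32 and 35, and for Ret they were these 4, knockouts 16, 29 and 50 and wild-type 45. P2rx3, an ATP-gated channel and the most abundant gene of the list, averaged 324 ± 73.5 CPM in the knockouts and 443 ± 165 CPM in the wild types, with an adjusted p of 0.465. The Mrgpr genes and Trpm8, which mark later stages of the lineage, fell below the filter, and Mrgpra3 and Mrgprx1 had no count in any library, where 3 counts correspond to 0.0889 to 0.869 CPM.

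Of 3 genes that Runx1 is known to hold down in those ganglia, edgeR called 0, and DESeq2 and limma-voom each called 1 higher. At an unadjusted p under 0.05 (edgeR), passed by 13.1% of all genes tested in either direction, 1 was higher. The median log2 fold change was 0.59. Met, a receptor for hepatocyte growth factor, stood at 10.5, 5.66, 13.2, 16.2 and 12.9 CPM in the knockouts, against 3.60, 3.39, 2.91, 2.29 and 7.32 CPM in the wild types. Knockout 29 and wild-type 45 made the groups overlap, and the log2 fold change was 1.57 ± 0.36 (SE; adjusted p = 0.0914, edgeR). Calca, which encodes the neuropeptide CGRP, averaged 69.0 ± 72.6 CPM in the knockouts and 45.5 ± 28.8 CPM in the wild types, with an adjusted p of 0.757 (edgeR). Oprm1, the mu opioid receptor gene, averaged 0.758 ± 0.227 CPM in the knockouts and 0.601 ± 0.366 CPM in the wild types, with an adjusted p of 0.700 (edgeR).

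Of 10 genes of the touch and proprioceptive neurons in which Runx3 or the TrkB and TrkC receptors act, edgeR called 1 higher and 1 lower. Of all genes tested 0.0944% were called higher and 0.372% lower. At an unadjusted p under 0.05, passed by 13.1% of all genes tested in either direction, 3 were higher and 1 lower. DESeq2 called 2 higher and 1 lower, and limma-voom called 2 in each direction. The median log2 fold change was 0.62. Ntrk2, the TrkB receptor, stood at 323, 363, 457, 344 and 314 CPM in the knockouts, against 176, 167, 126, 167 and 184 CPM in the wild types. Each knockout library was above every wild-type one, and the log2 fold change was 1.14 ± 0.15 (SE; adjusted p = 0.00682, edgeR), a call lost without wild-type libraries 32 and 35 together (0.0802). Ntrk3, the TrkC receptor of Runx3-bearing neurons, stood at 279, 176, 435, 355 and 495 CPM in the knockouts, against 154, 70.6, 194, 177 and 194 CPM in the wild types. The groups overlapped through knockout 29, the library with the most Runx3, and the log2 fold change of 1.14 ± 0.32 was not called (SE; adjusted p = 0.166, edgeR). Mafa, a factor of early Ret-bearing touch neurons, was lower, at 1.55 ± 1.07 CPM in the knockouts and 13.53 ± 5.12 CPM in the wild types (SD, n = 5 each), and its log2 fold change was -3.14 ± 0.53 (adjusted p = 0.0287, edgeR). It lost its call without any 1 of knockouts 42, 49 and 50 or wild types 24, 32 and 35, at adjusted p of 0.0516 to 0.0876. Maf, a related factor, averaged 138 ± 44.2 CPM in the knockouts and 125 ± 27.2 CPM in the wild types, with an adjusted p of 0.816 (edgeR).

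**Figure D5:**
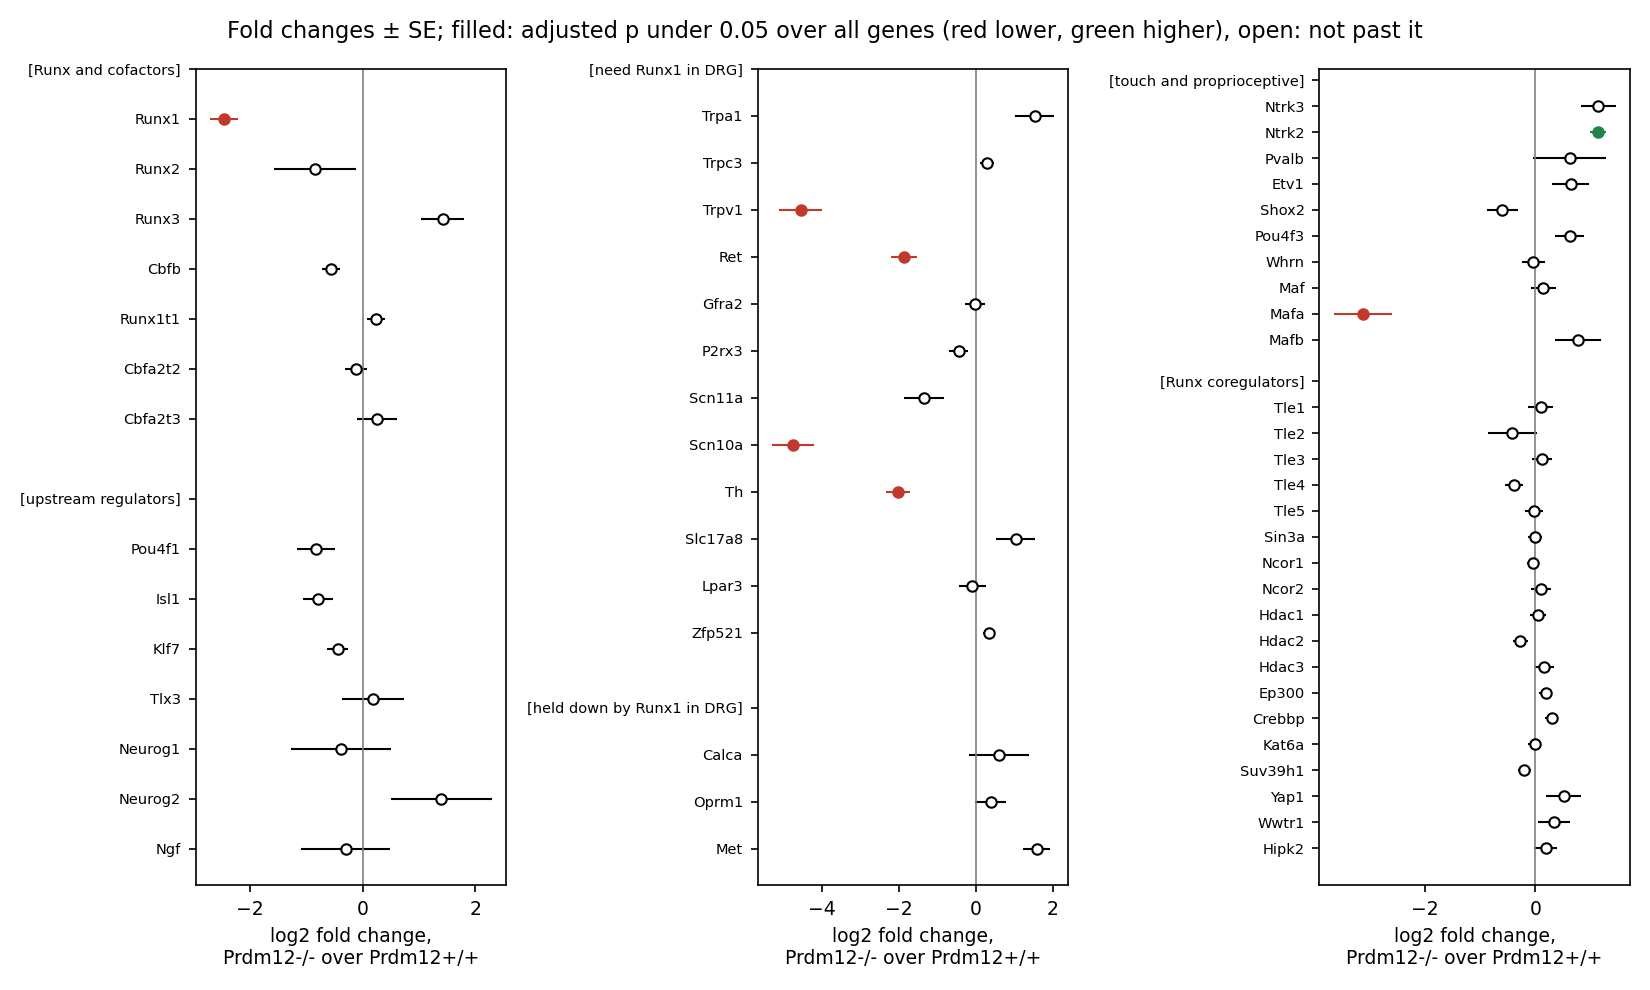
Log2 fold changes, knockout over wild type, ± SE (x axis) for the members and the tested genes of 5 lists, named on the y axis. Filled points passed an adjusted p of 0.05 over all genes (edgeR): Runx1, Trpv1, Ret, Scn10a, Th and Mafa lower, Ntrk2 higher; open points did not pass.

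Runx proteins recruit general corepressors and coactivators. Of 18 such genes, edgeR called 0, DESeq2 called 0, and limma-voom called 1 in each direction. At an unadjusted p under 0.05 (edgeR), passed by 13.1% of all genes tested in either direction, 1 was higher and 1 lower. The median log2 fold change was 0.07. Tle5, a Groucho-related protein, averaged 333 ± 62.0 CPM in the knockouts and 340 ± 58.8 CPM in the wild types. Hdac2, a histone deacetylase, averaged 281 ± 33.9 CPM in the knockouts and 340 ± 32.1 CPM in the wild types, and Ncor1, a nuclear receptor corepressor, averaged 251 ± 10.1 CPM in the knockouts and 258 ± 22.3 CPM in the wild types (SD, n = 5 each). Of 11 partners of the ETO family 10 were tested, and edgeR called 0, DESeq2 1 higher and limma-voom 2 higher. At the same unadjusted threshold, passed by 13.1% of all genes tested, 1 was higher. The median log2 fold change of these partners was 0.36. Among these, the E proteins Tcf12 and Tcf3 averaged 255 ± 38.4 and 224 ± 84.6 CPM in the knockouts, against 201 ± 48.97 and 173 ± 49.4 CPM in the wild types, and the LIM-binding protein Ldb1 averaged 327 ± 132 CPM in the knockouts and 280 ± 29.7 CPM in the wild types.

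Of 14 genes of bone and its formation, read beside Runx2, 11 were tested and edgeR called 0. At an unadjusted p under 0.05 (edgeR), passed by 13.1% of all genes tested in either direction, there was 1 in each direction. DESeq2 and limma-voom called none. Their median log2 fold change was -0.65. The collagen gene Col1a1 averaged 1644 ± 984 CPM in the knockouts and 1003 ± 795 CPM in the wild types, and Col1a2 averaged 1447 ± 682 CPM in the knockouts and 909 ± 711 CPM in the wild types. Msx2, a homeobox gene of skull bone, averaged 6.63 ± 6.76 CPM in the knockouts and 27.4 ± 27.9 CPM in the wild types.

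Runx1 is also a gene of blood cells and their precursors, so markers of other cell types were read beside it. The summed level of 12 macrophage markers was 179 to 364 CPM in the knockouts and 52.6 to 296 CPM in the wild types, and that of 13 megakaryocyte and red cell markers was 838 to 3074 CPM in the knockouts and 525 to 1695 CPM in the wild types. All 25 of these markers had a positive fold change; their part in the Runx1 values was not tested. Over 9 marker lists with 87 tested genes, edgeR called 0, 18 were higher and 8 lower at an unadjusted p under 0.05, DESeq2 called 9 higher and 1 lower, and limma-voom called 25 higher and 5 lower. At the same unadjusted threshold, passed by 13.1% of all genes tested in either direction, 6 of the 13 sensory neuron markers were lower, and limma-voom called 5 of them lower. The endothelial list had 8 of 10 markers higher at that threshold and summed to 436 to 1058 CPM in the knockouts and 224 to 534 CPM in the wild types; its part in the Runx3 values was not tested.

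Among 12467 genes with a mean of at least 5 CPM, F730016J06Rik, D130052B06Rik, Trpv1 and Gal were among those whose log2 CPM followed Runx1 most closely over the 10 libraries, with Pearson r of 0.978 to 0.986. After the genotype means were subtracted, r for these genes was 0.709 to 0.818. All 4 were lower in the knockouts; Gal, which encodes the neuropeptide galanin, averaged 11.5 ± 4.63 CPM in the knockouts and 97.6 ± 41.4 CPM in the wild types (SD, n = 5 each; adjusted p = 0.00223, edgeR). The genes closest to Runx3 were Fignl2, Slc45a4, Skor2, Smad7 and Jun, with r of 0.944 to 0.970 and of 0.880 to 0.960 after subtraction. None of these 5 was called. Skor2, a transcriptional corepressor gene, averaged 74.2 ± 60.7 CPM in the knockouts and 16.2 ± 4.27 CPM in the wild types (adjusted p = 0.0517, edgeR). Runx3 stood at 92.5 CPM in knockout 29 and at most 41.7 CPM in the other knockouts, so that 1 library weighs heavily on these r. The highest and median knockout values were 182 and 49.8 CPM for Skor2, 253 and 105 CPM for Jun, and 68.9 and 25.5 CPM for Fignl2. With the genotype means subtracted, the closest genes were Matn4, Tgfb2 and Foxp2 for Runx2 (r = 0.980 to 0.984) and, among others, Smad9 and Kcnab1 for Cbfb (0.955 and 0.947). For the ETO family they were Cnr1, Trim9 and Fstl5 for Runx1t1 (0.967 to 0.976), Mtif2, Top2b and Cdkn2aip for Cbfa2t2 (0.961 to 0.968), and Pou2f2, Snx11 and Sstr2 for Cbfa2t3 (0.974 to 0.980). Between members, Runx1 and Cbfb had an r of 0.695 after subtraction and Runx1 and Runx3 one of 0.176. Larger in absolute value were Runx1 and Runx2 (-0.836), Runx3 and Cbfa2t2 (-0.804), Runx1t1 and Cbfa2t3 (0.786), and Runx2 and Cbfb (-0.76). These values describe 10 libraries that share their tissue makeup and depth, and with so many genes compared the closest ones are close by selection.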

How the data were processed

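RNA-seq counts were analysed for 5 Prdm12-/- and 5 Prdm12+/+ mouse trigeminal ganglion libraries, grouped by the genotype label. The authors deposited raw counts per Ensembl gene, one table per library; per the submitters' processing notes, featureCounts (version 1.5.0-p1), STAR (version 2.7.10a) and bcl2fastq (version 2.20.0.422) were run, and the builds mm10 and GRCm39 are named without roles. Which annotation, strand setting and rule for multiply mapped reads applied was not given in the sources used here, and each could shift counts of overlapping genes.

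Symbols were matched to 52081 of 55414 Ensembl IDs. Counts were tested with edgeR 4.0.16 (R 4.3.3), as the quasi-likelihood test with TMM scaling, a minimum count of 10 by filterByExpr, and Benjamini-Hochberg adjustment over all 18005 genes kept at a threshold of 0.05. SE is the absolute log2 fold change divided by the square root of the F statistic. Levels per kilobase used exon union lengths of GENCODE M21 (GRCm38), which may differ from the authors' annotation. The ratio of Runx1 to Runx3 was tested by exact permutation over libraries (scipy 1.17.1). The script was tested on simulated data. Alternatives were RLE and upper-quartile scaling, no filter and a minimum count of 30, robust edgeR, DESeq2 1.42.0, limma-voom (limma 3.58.1) with sample quality weights, each library left out, and pairs of libraries left out.

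The members and gene lists were chosen with earlier results of these data known. Named genes were the members, the called genes and the 3 most abundant genes of each list, and the genes most correlated with a member (5 for Runx1 and for Runx3, 3 for the others); for cell type markers summed levels are given instead. Some genes that this rule or the lists would name are not reported here.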

Additional observations from a re-analysis of the deposited data

Results flagged for a closer look

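In 18 groups of 5 values examined (the members, Prdm12 and the Runx1 to Runx3 ratio, each genotype by itself), 3 held a library far from the other 4, with a gap to its nearest neighbour above Dixon's 95% critical share of the group's range; chance alone gives this in about 1 group in 20. Runx3 was 92.5 CPM in knockout 29, against 22.9 to 41.7 CPM in the other knockouts. Prdm12 was 42.7 CPM in the same library, against 8.74 to 17.0 CPM in the other knockouts and 74.3 to 264 CPM in the wild types. Cbfa2t2 was 65.6 CPM in wild-type 22, against 55.4 to 56.9 CPM in the other wild types.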

How the results depend on the processing

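The Runx1 call and its direction held under all 19 alternatives. The Runx1 to Runx3 balance kept its direction and its p at the smallest possible under all 14 of its own. Most of these 14 only left libraries out. With no overlap between genotypes, that step cannot change the direction or give a larger p than the smallest possible. For the members, edgeR gave 1 lower and 0 higher call with each library left out; DESeq2 gave 1 higher, and limma-voom gave 1 higher and 2 lower. Over all genes the calls moved more than those of the members. With no filter they were 55 higher and 102 lower, with a minimum count of 30 they were 26 higher, with DESeq2 350 higher and 245 lower, and with limma-voom 1264 higher and 1080 lower, against 17 higher and 67 lower. Without knockouts 29 and 49 there were 6 higher, and without wild-type libraries 32 and 35 there were 0 higher and 19 lower. With each library left out the counts ranged from 2 to 35 higher and from 27 to 88 lower. Log2 fold changes turned sign for Cbfa2t2 without knockouts 29 and 49 (0.045) and for Cbfa2t3 in limma-voom (-0.27); with each library left out they ranged from -0.27 to 0.063 for Cbfa2t2 and from -0.24 to 0.44 for Cbfa2t3. Of the genes known to need Runx1, 4 were called lower, but 1 without knockouts 29 and 49, and 2 without wild types 32 and 35 together or without knockout 42, knockout 49, wild-type 32 or wild-type 35. Limma-voom called 11 of 12 macrophage and 7 of 10 endothelial markers higher, and DESeq2 called 6 endothelial markers higher, where edgeR called 0. The cause of these moves was not tested. RLE scaling moved the median of all genes to 0.02, against -0.03. No paired analysis was possible because no replicate number occurs in both genotypes. Knockout 49, with 3258008 counts, limits the precision of low genes.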
